A study of Homo sapiens with 6 samples.

Results

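Processed pseudogenes are copies of spliced mRNAs that were written back into the genome as DNA, and 282 of them were followed here in KNS42 cells after knockdown of MSI1. They were chosen by their measured level, a mean of at least 2 FPKM (a read count divided by gene length and library depth) over all 6 libraries, from the 10241 genes of the type processed pseudogene among 58174 genes in the table. The level that selected them is an average over both groups, so it does not use the comparison between the groups. For 163 of the 282, the symbol without its final P and digits is the symbol of another gene in the table, the parent, and these copies have 121 parents, all of them protein-coding. For a further 108, nearly all with a clone name as symbol, the parent was taken from the sequence as the best-matching protein-coding transcript (at least 80% identity over at least 50% of the copy). No parent was found for the other 11.

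KNS42 is an established line from a pediatric glioblastoma, a malignant brain tumor. Cells received an siRNA pool against MSI1, which encodes the RNA-binding protein Musashi-1 (siMSI1), or a control siRNA (siC), and were harvested 72 h later, with 3 libraries per group. Both groups were grown in DMEM with fetal bovine serum, and both are the same single cell line, so 1 line and 1 siRNA pool stand behind all values. The libraries held polyadenylated RNA, were made strand-specific and were sequenced as reads of 150 bases.

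A processed pseudogene arises when the LINE-1 reverse transcriptase copies an mRNA and inserts the copy elsewhere, usually without introns and without the promoter of its source. Genes with abundant mRNA in the germ line, ribosomal proteins above all, have left the most copies. Most copies have lost their open reading frame, some are transcribed from a promoter near the insertion, and a few, such as MCTS2P, became genes of their own. Since a copy and its parent are nearly the same sequence, a short read from one of them can match the other, and how a read with several matches is counted affects both.

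MSI1 was at 63.8, 61.9 and 66.9 FPKM under siC against 12.1, 12.3 and 11.2 under siMSI1, a log2 fold change of −2.43 (adjusted p = 8.7e-06, limma). The libraries held 13087025 to 18024080 reads on genes. Of the neural and glial markers, VIM, SOX2, NES, CD44 and FABP7 were at 15.1 FPKM or more in every library, GFAP was at 1.33 to 5.04 FPKM, and OLIG2 and S100B were listed at 0, while PTPRC, CD3E, PECAM1 and EPCAM, markers of leukocytes, endothelium and epithelium, were at 0.159 FPKM or less. Of these markers, GFAP rose (log2 fold change 1.46) and FABP7 and CD44 fell (−1.12 and −0.46), and their part in the changes of the copies was not tested. Changes are differences of log2(FPKM + 0.1), siMSI1 minus siC, from 1 limma fit over the 15069 genes with a mean of at least 0.5 FPKM. A gene is called changed at a Benjamini-Hochberg adjusted p of at most 0.01. All 282 copies passed this filter. In 13 of them the siC mean alone was under 2 FPKM and in 9 the siMSI1 mean alone, so these passed the level of 2 through one group. In bulk RNA, more transcript per cell and more cells with the transcript cannot be told apart, and the origin of the 3 libraries of a group (separate cultures or not) is not given in the labels.

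MSI1 knockdown changed 17 of the 282 copies, 15 of them higher and 2 lower in siMSI1. That is 6.03% of the copies, against 11.0% of all tested genes. In the upward direction it is 5.32%, against 5.15% of all tested genes, and in the downward direction 0.709% against 5.83%. The share of copies called higher was thus near that of all tested genes, and the share called lower was below it. Beyond the calls, the fold changes lay mostly on one side: 199 of 282 (70.6%) were above 0, while the tested genes as a whole split evenly around 0, and the median of the copies was 0.23, against 0.000015 for all tested genes and −0.0077 for tested protein-coding genes. For the 260 copies at 2 FPKM or more in both groups the median was 0.23, and 186 were above 0. The 93 tested protein-coding genes of the RPL and RPS series had a median of 0.20. The siMSI1 and siC values did not overlap for 106 copies (37.6%, of which 85 were higher and 21 lower in siMSI1), against 42.8% of all tested genes. The 253 tested processed pseudogenes below 2 FPKM had a median of 0.049, and 5 of them were called.

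The count of 17 depended on which libraries were included. Leaving out a library also makes its group smaller, and the number of all tested genes called in these fits is not given here. A trait of particular libraries or of the copies can thus not be read from the counts. The number called fell to 6 without siC replicate 1, and was 8 without siC replicate 2, 8 without siC replicate 3 and 11 without siMSI1 replicate 2, and it was 18 when either of the other siMSI1 libraries was left out. These are not always the same genes: 12 of the 17 kept their call when siMSI1 replicate 1 or 3 was left out, and 6 or 7 when one of the other 4 libraries was. AC138392.1, AC144530.1, EEF1B2P3 and PBX2P1 were called in each of the 17 alternatives that gave them a test. AC112777.1 was called in 16 of them, and it lost its call only when replicate 3 of both groups was left out. AC022431.1, AL390039.1 and CPSF1P1 lost their call whichever library was left out. None of the 17 copies changed its sign in any alternative.

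The copies took a slightly larger part of the reads in siMSI1. They held 0.501%, 0.479% and 0.551% of the reads on genes in siC and 0.560%, 0.615% and 0.673% in siMSI1, so each siMSI1 library was above each siC library. The means were 0.510% ± 0.037 in siC and 0.616% ± 0.056 in siMSI1 (SD, n = 3 each), a ratio of 1.21 (p = 0.1 in a two-sided exact permutation test, which cannot give less with 3 libraries in each group). The parents of the 163 copies moved in the same direction, from 6.59%, 6.66% and 6.73% of the reads in siC to 6.91%, 7.31% and 7.27% in siMSI1, a ratio of 1.08 (p = 0.1, same exact test). The share of the copies was larger in siMSI1 by 0.0773 to 0.134 percentage points when each library was left out in turn.

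Reads were spread unevenly over the copies. The median copy was 553 bases long and had a mean of 66.1 reads per library, from 4.83 to 10138 reads, and the 4 with the most reads held 29.9% of all reads on the 282. The level per length was highest in RPL41P1, at a mean of 2142 FPKM, followed by RPS28P7 at 1248, AC090498.1 at 680.1, AC011495.1 at 665, EEF1A1P5 at 492, AC016596.1 at 486, TMSB4XP8 at 465 and AC026366.1 at 400.2 FPKM. Their parents encode ribosomal proteins in 6 cases (RPL41 for 3 of them, RPS28, RPS9 and RPS2), the elongation factor eEF1A1, which brings aminoacyl-tRNA to the ribosome, and thymosin beta-4, which binds monomeric actin. None of these 8 was called by limma, with 3 higher at an unadjusted p under 0.05 and the same number called by voom on the recovered reads. At the other end, AC079250.1 (2.06 FPKM) and RPL24P2 (2.07 FPKM) lay just inside the level that selected the copies, and RPS13P2 and C1DP1 (1.99 FPKM each) just outside it. The standard error followed the reads: its median was 0.278 for the 63 copies under 30 reads, 0.164 for the 108 with 30 to 100 reads, 0.115 for the 98 with 100 to 1000 reads and 0.105 for the 13 with more. All 13 copies with 1000 reads or more had a fold change above 0, and 2 of them were called, AC116533.1 among them.

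By position, 280 of the 282 were found in GENCODE release 44 on GRCh38, 269 of them as a single exon. In that release 6 are typed as transcribed processed pseudogenes, and FAM103A2P, MCTS2P and FOXO3B as protein-coding. The best-matching protein-coding transcript had a median identity of 98.2%. A read of 150 bases can be placed on the copy alone only where it differs from the parent, within the copy or past its ends. For the 269 copies where this could be done, all genome stretches of this length that overlap the copy, flanking bases included, were taken. A median of 7.9% of them also stand, base for base, in a protein-coding transcript. For 33 copies this was more than 50% of the stretches, and for 94 it was 0%. The share for stretches wholly within a copy is not given here.

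The 2 copies that fell, AC138392.1 and AC112777.1, did so together with their parents. AIDA encodes an axin-interacting protein that restrains JNK signaling, and UHRF1 encodes the protein that binds hemimethylated DNA and brings DNMT1 to it. Both have a copy in an intron of another gene, AC138392.1 (chr1:77810861-77811781, minus strand, in MIGA1 on the opposite strand) and AC112777.1 (chr12:20551590-20553012, plus strand, in PDE3A on the same strand). AC138392.1 differs from the coding sequence of AIDA (gene on chr1:222668013-222713210, minus strand) at 2 of 921 aligned bases, and AC112777.1 from that of UHRF1 (chr19:4903080-4962154, plus strand) at 8 of 1422. The stretches shown are 1 read length of coding sequence with the most differences, chosen because they show how little separates a read of the copy from one of the parent. Bases that differ, 1 in the first pair and 5 in the other, are in capitals. Those of AC138392.1 lie at chr1:77811048-77811197 on the minus strand and those of AC112777.1 at chr12:20551956-20552105 on the plus strand (GRCh38).
AIDA: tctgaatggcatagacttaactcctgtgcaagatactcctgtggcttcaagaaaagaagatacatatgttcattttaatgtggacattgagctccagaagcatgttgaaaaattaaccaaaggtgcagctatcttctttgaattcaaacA
AC138392.1: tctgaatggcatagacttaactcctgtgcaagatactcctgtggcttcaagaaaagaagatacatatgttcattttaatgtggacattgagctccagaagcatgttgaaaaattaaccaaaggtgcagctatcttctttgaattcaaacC
UHRF1: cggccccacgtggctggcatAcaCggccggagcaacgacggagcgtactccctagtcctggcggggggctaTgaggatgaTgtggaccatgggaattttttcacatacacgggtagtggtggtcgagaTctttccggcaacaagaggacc
AC112777.1: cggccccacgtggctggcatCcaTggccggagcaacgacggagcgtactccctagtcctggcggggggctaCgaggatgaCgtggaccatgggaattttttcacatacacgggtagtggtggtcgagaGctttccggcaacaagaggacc

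AC138392.1 was at 40.8, 37.6 and 40.1 FPKM under siC against 18.2, 20.7 and 13.7 under siMSI1, and AIDA was at 22.6, 24.01 and 18.8 FPKM under siC against 9.75, 10.4 and 7.82 under siMSI1. The groups did not overlap in either, and both fell by a like amount (log2 fold change −1.19, SE 0.140, adjusted p = 0.0012 for the copy, log2 fold change −1.22, SE 0.130, adjusted p = 0.00083 for AIDA, limma with Benjamini-Hochberg adjustment). AC112777.1 was at 12.9, 10.3 and 11.1 FPKM under siC against 7.15, 6.92 and 6.80 under siMSI1, and it fell as well (log2 fold change −0.70, SE 0.0939, adjusted p = 0.002). UHRF1 was at 36.1, 34.4 and 32.7 FPKM under siC against 21.9, 21.8 and 21.8 under siMSI1 (log2 fold change −0.65, SE 0.0626, adjusted p = 0.00057). The log2 ratio of copy to parent differed between siMSI1 and siC by 0.034 for AIDA and by −0.053 for UHRF1, and the ratios of the groups overlapped in both pairs (exact permutation test, p = 0.9 and 0.6). Neither host passed the threshold: the log2 fold change was −0.039 for MIGA1 (adjusted p = 0.87) and 0.37 for PDE3A (adjusted p = 0.080).

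Among the copies that rose, EEF1B2P3 and PBX2P1 had nearly the same change as their parents. EEF1B2 encodes the exchange factor subunit that reloads eEF1A with GTP, and PBX2 encodes a homeodomain protein that binds DNA together with HOX proteins. EEF1B2P3 (chrX:24788392-24789069, minus strand, in an intron of POLA1 on the opposite strand) differs from the coding sequence of EEF1B2 (chr2:206159585-206162928, plus strand) at 7 of 678 bases. PBX2P1 (chr3:143176327-143177617, plus strand) differs from that of PBX2 (chr6:32184733-32190202, minus strand) at 18 of 1290. The read lengths with the most differences, 3 and 4, again in capitals, lie at chrX:24788915-24789064 on the minus strand and at chr3:143177193-143177342 on the plus strand.
EEF1B2: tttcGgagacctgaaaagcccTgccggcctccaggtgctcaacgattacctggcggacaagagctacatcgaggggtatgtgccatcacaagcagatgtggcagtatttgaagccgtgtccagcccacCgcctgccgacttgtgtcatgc
EEF1B2P3: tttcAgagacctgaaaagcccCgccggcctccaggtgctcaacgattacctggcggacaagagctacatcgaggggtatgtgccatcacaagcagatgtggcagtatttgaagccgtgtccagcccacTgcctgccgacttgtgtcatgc
PBX2: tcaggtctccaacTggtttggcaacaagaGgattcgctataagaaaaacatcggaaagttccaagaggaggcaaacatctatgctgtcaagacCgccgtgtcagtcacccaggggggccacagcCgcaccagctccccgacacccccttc
PBX2P1: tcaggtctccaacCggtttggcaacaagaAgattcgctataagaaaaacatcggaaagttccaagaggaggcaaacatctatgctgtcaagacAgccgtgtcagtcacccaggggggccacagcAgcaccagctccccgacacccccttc

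EEF1B2P3 was at 21.3, 19.5 and 19.5 FPKM under siC against 30.02, 31.2 and 34.9 under siMSI1 (log2 fold change 0.67, SE 0.0787, adjusted p = 0.0012). EEF1B2 was at 163, 170.4 and 178 FPKM under siC against 251, 277 and 281 under siMSI1 (log2 fold change 0.66, SE 0.0711, adjusted p = 0.00086). PBX2P1 was at 16.0, 14.9 and 17.8 FPKM under siC against 26.2, 27.3 and 26.5 under siMSI1 (log2 fold change 0.72, SE 0.0793, adjusted p = 0.00098), and PBX2 was at 1.23, 1.46 and 1.26 FPKM under siC against 2.27, 2.02 and 2.40 under siMSI1 (log2 fold change 0.72, SE 0.137, adjusted p = 0.0087). All 4 genes rose with no overlap between the groups, and the ratio of copy to parent differed by 0.0097 and 0.0023 on the log2 scale. PBX2P1 had a mean of 406 reads per library and PBX2 one of 114, so here the copy held the larger count.

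**Figure D1:**
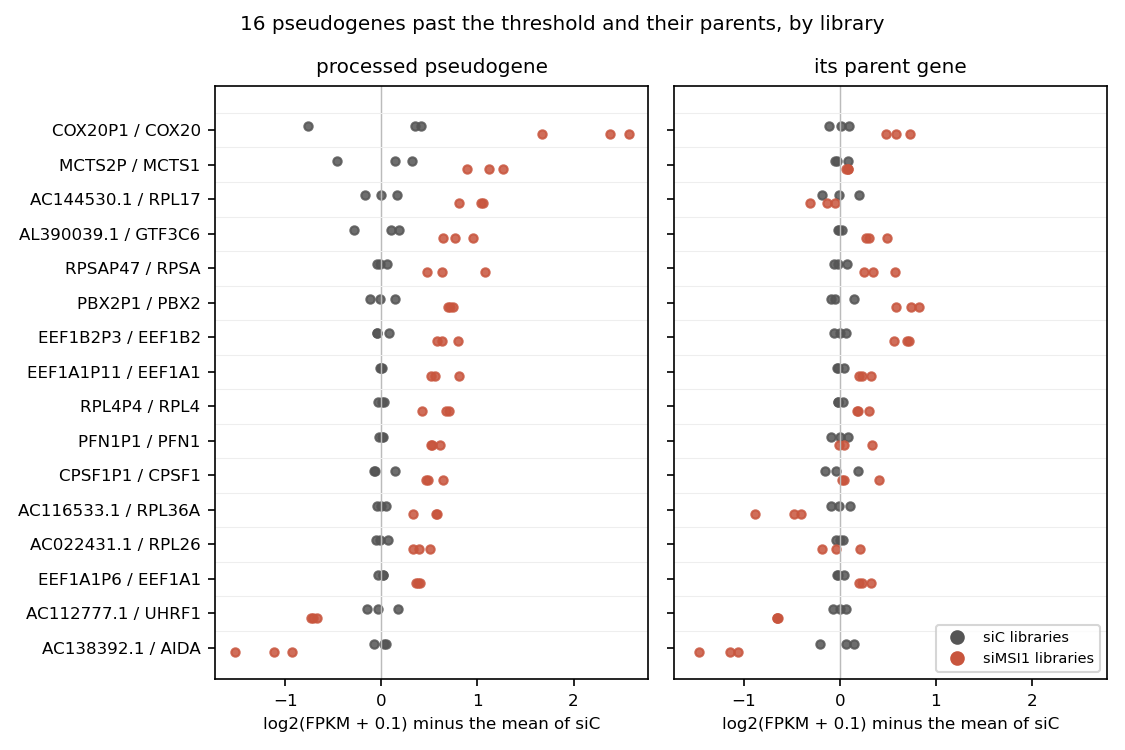
Of the 17 called copies, 16 (left) and their parents (right), 1 row per pair; the horizontal axis is log2(FPKM + 0.1) minus the mean of the siC libraries, with siC libraries in grey and siMSI1 libraries in red. The siMSI1 points of AIDA, UHRF1, EEF1B2 and PBX2 lie where those of their copies lie, while those of MCTS1, RPL17, PFN1 and RPL26 stay near the siC points. RPL17 and RPL26 share most of their exon bases with another gene.

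COX20P1, PFN1P1 and MCTS2P rose, with fold changes above those of their parents. COX20 encodes an assembly factor of cytochrome c oxidase and PFN1 the actin-binding protein profilin-1. MCTS1 is a factor of translation re-initiation, and its intronless relative MCTS2P lies in HM13. COX20P1 (chr10:68632371-68632727, plus strand, in TET1 on the same strand) differs from the coding sequence of COX20 (chr1:244835616-244845057, plus strand) at 6 of 357 bases. PFN1P1 (chr1:171670517-171670939, minus strand) differs from that of PFN1 (chr17:4945652-4949061, minus strand) at 16 of 420. MCTS2P has an identity of 91.4% with the transcript of MCTS1. The sequences show 2 degrees of this divergence, 3 differences in the read length of COX20P1 (chr10:68632523-68632672 on the plus strand) and 11 in that of PFN1P1 (chr1:171670759-171670908 on the minus strand), with differing bases in capitals.
COX20: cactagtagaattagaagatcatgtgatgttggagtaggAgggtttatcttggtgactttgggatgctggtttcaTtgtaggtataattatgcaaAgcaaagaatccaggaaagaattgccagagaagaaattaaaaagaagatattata
COX20P1: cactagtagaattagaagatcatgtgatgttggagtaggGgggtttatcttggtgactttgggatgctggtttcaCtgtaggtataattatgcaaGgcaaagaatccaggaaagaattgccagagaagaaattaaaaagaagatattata
PFN1: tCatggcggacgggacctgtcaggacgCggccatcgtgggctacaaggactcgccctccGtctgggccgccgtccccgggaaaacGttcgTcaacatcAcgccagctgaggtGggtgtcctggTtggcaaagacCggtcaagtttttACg
PFN1P1: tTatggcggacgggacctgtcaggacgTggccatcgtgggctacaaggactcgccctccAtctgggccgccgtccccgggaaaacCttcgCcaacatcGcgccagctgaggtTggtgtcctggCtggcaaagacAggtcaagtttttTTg

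COX20P1 was at 0.374, 0.929 and 0.974 FPKM under siC against 2.47, 4.70 and 4.10 under siMSI1, which are only 2, 6 and 5 reads in siC and 13, 22 and 21 in siMSI1. Its mean was under 2 FPKM in siC, so it was selected through siMSI1 and is the only called copy selected through 1 group. Its log2 fold change (2.21, SE 0.367, adjusted p = 0.0057, limma) is thus not independent of the selection, and lay between 1.42 and 2.48 over the alternatives. The call was lost without siC replicate 2 or 3 and without siMSI1 replicate 2 or 3. COX20 was at 14.0, 16.2 and 15.2 FPKM under siC against 22.7, 25.1 and 21.2 under siMSI1 and also rose (log2 fold change 0.60, SE 0.0877, adjusted p = 0.0029). PFN1P1 was at 9.15, 9.41 and 9.37 FPKM under siC against 14.3, 13.3 and 13.5 under siMSI1 (log2 fold change 0.55, SE 0.0646, adjusted p = 0.0012). PFN1 was at 746, 697 and 787 FPKM under siC against 767, 737 and 936 under siMSI1, with groups that overlap (log2 fold change 0.12, SE 0.102, adjusted p = 0.42). MCTS2P was at 4.03, 2.63 and 4.58 FPKM under siC against 8.95, 6.85 and 8.04 under siMSI1 (log2 fold change 1.09, SE 0.202, adjusted p = 0.008), while MCTS1 was at 13.4, 14.5 and 13.3 FPKM under siC against 14.6, 14.4 and 14.6 under siMSI1 (log2 fold change 0.082, SE 0.0656, adjusted p = 0.4). HM13, whose exons overlap those of MCTS2P, had a log2 fold change of 0.19 with an adjusted p of 0.14 and TET1 one of −0.48 (adjusted p = 0.15), neither past the threshold. The ratio of copy to parent was larger in every siMSI1 library than in every siC library for all 3 pairs, by 1.61 for COX20P1, 0.43 for PFN1P1 and 1.01 for MCTS2P on the log2 scale (exact permutation test, p = 0.1 each). Ratios without overlap, in either direction, were seen in 20.2% of all pairs by symbol and 35.2% of those by sequence. The ratio of COX20P1, like its fold change, is not independent of the selection.

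The other called copies come from genes of translation, RNA processing and transcription. EEF1A1P6 and EEF1A1P11, copies of EEF1A1, rose by 0.38 and 0.63 on the log2 scale (adjusted p = 0.0032 and 0.0026, limma), beside 0.25 for EEF1A1 (adjusted p = 0.029). RPL4P4 and RPSAP47, copies of a large and a small subunit gene, rose by 0.60 and 0.73 (adjusted p = 0.0039 and 0.0094), beside 0.23 for RPL4 and 0.39 for RPSA (adjusted p = 0.037 and 0.019). RPL4P4 lies in an intron of MAP3K13 on the opposite strand, which fell by 0.65 on the log2 scale (adjusted p = 0.0031). AC144530.1, a copy of RPL17, was at 3.37, 3.79 and 4.26 FPKM under siC against 6.72, 7.97 and 7.90 under siMSI1 (log2 fold change 0.97, SE 0.115, adjusted p = 0.0012), while RPL17 was at 6.44, 7.44 and 5.69 FPKM under siC against 5.20, 6.25 and 5.90 under siMSI1 (log2 fold change −0.17, SE 0.119, adjusted p = 0.35). The RPL17 row held a mean of 229 reads, and 96.9% of the bases of RPL17 are shared with exons of RPL17.C18orf32. AC022431.1, a copy of RPL26, was at 8.38, 7.70 and 7.93 FPKM under siC against 10.5, 10.1 and 11.4 under siMSI1 (log2 fold change 0.41, SE 0.0774, adjusted p = 0.008), and RPL26 had a log2 fold change of −0.0063. The RPL26 row held a mean of 781 reads, with 65.3% of its bases shared with AC135178.2, and how reads in shared exons were assigned was not tested for either parent. AL390039.1 comes from GTF3C6, a subunit of the RNA polymerase III factor TFIIIC, and rose by 0.79 (adjusted p = 0.0094) beside 0.36 for GTF3C6 (adjusted p = 0.012). CPSF1P1 comes from CPSF1, a subunit of the cleavage and polyadenylation complex. It rose by 0.53 (adjusted p = 0.0072) beside 0.16 for CPSF1 (adjusted p = 0.42), and its exons overlap those of SLC5A4.AS1 on the same strand (log2 fold change 0.44, adjusted p = 0.16).

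Among the copies that rose, AC116533.1 had the parent with the lowest fold change. It lies at chr11:16974693-16975013, minus strand, in an intron of PLEKHA7 on the same strand, is identical to RPL36A over the aligned bases, and was at 224, 232 and 239 FPKM under siC against 291, 345 and 346 under siMSI1 (log2 fold change 0.49, SE 0.0839, adjusted p = 0.0054). RPL36A was at 1.78, 1.94 and 1.68 FPKM under siC against 1.33, 1.27 and 0.931 under siMSI1 (log2 fold change −0.59, SE 0.171, adjusted p = 0.041), so it was lower in siMSI1 without passing the threshold. The copy held a mean of 1325 reads per library and RPL36A one of 89.7, with 43.8% of its bases shared with RPL36A.HNRNPH2. For PLEKHA7 the log2 fold change was −0.024 (adjusted p = 0.88).

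Across the 163 copies with a parent of the same symbol, copy and parent mostly had the same sign. Both were above 0 in 92 pairs and both below 0 in 31. Of the 121 parents, 10 were called (8.26%, 8 higher and 2 lower, against 11.0% of all tested genes), with a median of 0.058. This count was 1 without siC replicate 1, 3 without siC replicate 2, 2 without siC replicate 3, 6 without siMSI1 replicate 1, 2 without siMSI1 replicate 2 and 5 without siMSI1 replicate 3. Copy and parent were both called in 3 pairs (COX20P1, EEF1B2P3 and PBX2P1), the copy alone in 7, the parent alone in 11 and neither in 142. The called parents without a called copy included EIF4B, NUDT4, PRR13, RPL10, RPL13A and RPS28, and the copies of each of these lay on the same side of 0 as the parent.

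**Figure D2:**
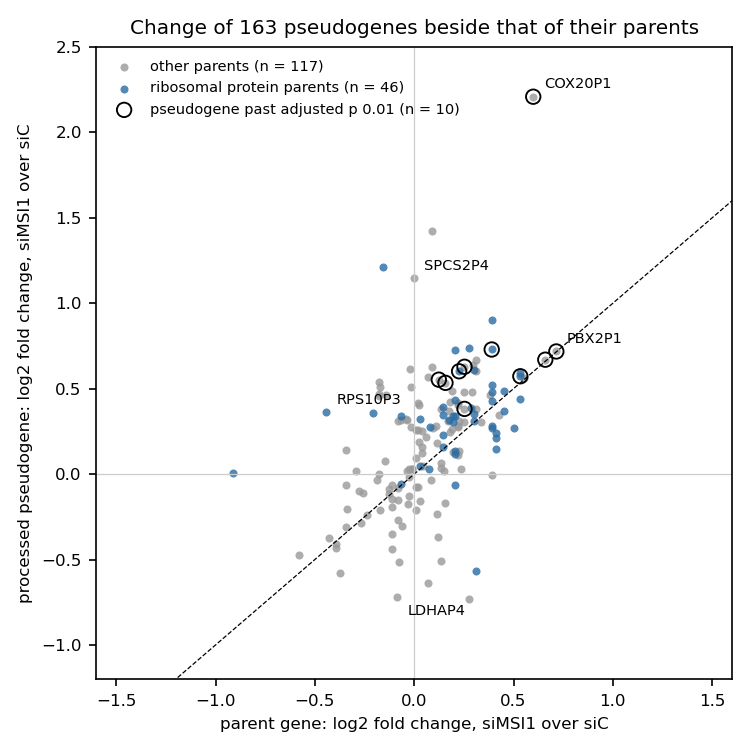
Log2 fold change of the parent (horizontal) and of its copy (vertical) for the 163 pairs by symbol; blue points have a ribosomal protein parent, circles mark called copies and the dashed line marks equal change. Most points lie near the line. COX20P1 lies furthest above it. Among copies with at least 30 reads, SPCS2P4 lies furthest above the line and LDHAP4 furthest below it. Some copies with fewer reads lie further out, RPL29P11 and SNRPGP10 above the line and DNAJC19P5 and RPL23P8 below it. RPL29P11, like COX20P1, had a siC mean under 2 FPKM and so was selected through siMSI1. Its siMSI1 values were 2.34, 2.17 and 8.07 FPKM.

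The change of the copy correlated with that of the parent with a Pearson's r of 0.475 and a Spearman's rho of 0.511 over the 163 pairs, and with 0.642 and 0.634 over the 126 pairs whose copy had at least 30 reads. These values are descriptions across genes, since the pairs share the 6 libraries, several share a parent, and reads can be shared within a pair. The difference of copy and parent, copy minus parent, had a median of 0.073 on the log2 scale and quartiles of −0.069 and 0.27, and it was above 0 in 112 of 163 pairs. The median was 0.043 without siC replicate 2 and 0.129 after quantile normalization. By library, the median log2 ratio lay at 0.013, −0.018 and 0.020 in siC and at 0.052, 0.075 and 0.12 in siMSI1, relative to the siC mean of each pair, so the siMSI1 libraries were above the siC libraries. The siMSI1 and siC ratios did not overlap in 33 pairs (20.2%, of which 27 were higher and 6 lower), against 17.0% of all 289 tested processed pseudogenes with a tested parent by symbol. Pairs were closer where the copy was closer in sequence: the median size of the difference was 0.133 for the 52 pairs with at least 99% identity, 0.186 for the 76 pairs with 97% to 99%, and 0.35 for the 34 pairs below. The median reads of these copies fell in the same order, 165, 80.2 and 23.9 per library, and the part of depth in this order was not tested. The copies held a median of 1.5% of the reads of their parent.

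For the 105 copies with a tested parent found by sequence the pattern was looser. The signs were the same in 67 pairs, the median difference was 0.084, and Pearson's r was 0.298 (Spearman's rho 0.264).

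The largest differences among symbol pairs whose copy had at least 30 reads were seen for SPCS2P4, RPS10P3, HSPE1P2, FTH1P2, LDHAP4 and CBX3P9, and none of these copies was called. SPCS2P4 (chr1:28095742-28096422, minus strand) is a copy of the signal peptidase subunit gene SPCS2 (chr11:74949261-74979033, plus strand) with 3 differences in 681 coding bases, 2 of them in the read length at chr1:28096260-28096409 on the minus strand, shown because this pair differed most.
SPCS2: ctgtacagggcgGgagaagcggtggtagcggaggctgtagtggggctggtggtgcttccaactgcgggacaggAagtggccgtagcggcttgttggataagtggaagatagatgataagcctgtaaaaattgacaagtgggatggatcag
SPCS2P4: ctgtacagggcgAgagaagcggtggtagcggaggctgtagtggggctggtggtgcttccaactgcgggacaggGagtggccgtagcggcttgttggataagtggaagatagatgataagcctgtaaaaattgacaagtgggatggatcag

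SPCS2P4 was at 15.8, 18.5 and 14.0 FPKM under siC against 79.3, 25.9 and 21.8 under siMSI1 (log2 fold change 1.15, SE 0.485, adjusted p = 0.14). 1 library, siMSI1 replicate 1, stood far above the others, and without it the difference of copy and parent was 0.42 in place of 1.15. SPCS2 itself was at 68.4, 71.4 and 70.0 FPKM under siC against 56.9, 86.0 and 69.5 under siMSI1 (log2 fold change −0.0021, SE 0.135, adjusted p = 0.99). RPS10P3 had a log2 fold change of 0.36 and its parent RPS10, a small subunit gene, one of −0.44, and neither passed the threshold. The RPS10 row held a mean of only 13.3 reads, with 84% of its bases shared with RPS10.NUDT3. HSPE1P2 was at 0.51 beside −0.17 for HSPE1, the mitochondrial co-chaperonin, and CBX3P9 at 0.47 beside −0.14 for CBX3, a heterochromatin protein. LDHAP4, also selected through siC, was at 2.88, 2.44 and 2.86 FPKM under siC against 2.17, 1.38 and 1.40 under siMSI1, lower in each siMSI1 library than in each siC library (log2 fold change −0.72, adjusted p = 0.029), while LDHA, the lactate dehydrogenase A gene, had −0.086. AC068587.4, a copy of RPS24, was selected through siC, its siMSI1 mean being under 2 FPKM, and its log2 fold change was −2.80 (adjusted p = 0.10) with 11, 17 and 6 reads in siC and 2, 4 and 0 in siMSI1, and it was named after its values were seen.

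Grouped by the role of the parent, the copies of translation factor, ubiquitin and ribosomal protein genes had the highest medians. The 100 copies of cytosolic ribosomal protein genes had a median log2 fold change of 0.32, 89 were above 0, 6 rose and 0 fell by the limma test (against 5.15% of all tested genes called higher). At an unadjusted p under 0.05 the numbers were 41 higher and 3 lower, and voom called 12 higher and 0 lower. Over all 282 copies these numbers were 89 higher and 21 lower, and 22 higher and 2 lower by voom. The share of all tested genes at an unadjusted p under 0.05 is not given here, so these counts are descriptions. The 51 parents of the ribosomal protein copies had a median of 0.16, with 3 called, all higher. The 16 copies of translation factor genes had a median of 0.38, 15 were above 0 and 3 rose (EEF1A1P6, EEF1A1P11 and EEF1B2P3), beside a median of 0.18 for their 10 tested parents. At an unadjusted p under 0.05 there were 13 higher and 1 lower, and voom called 5 higher. The ribosomal protein copies held 53.2% of all reads on the 282 copies and the translation factor copies 19.4%. The 22 copies of hnRNP, HMG, nucleolar and chromatin protein genes had a median of −0.040, 10 were above 0 and none was called by limma or voom (2 higher and 2 lower at an unadjusted p under 0.05), and their 12 parents had a median of −0.045. The 7 copies of ubiquitin and proteasome genes (median 0.37), the 7 of chaperone and prolyl isomerase genes (0.27), and the 5 of glycolysis genes (0.029) held no call by limma. At an unadjusted p under 0.05 they held 3, 4 and 1, and voom called 1, a chaperone copy. The 11 of mitochondrial protein genes held 1 call, COX20P1 (median 0.12), and the 3 of cytoskeleton genes held 1, PFN1P1. The 100 remaining copies with a parent had a median of 0.069, with 4 higher and 2 lower, and the 11 without a parent −0.12 with no call by limma or voom and 3 at an unadjusted p under 0.05.

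**Figure D3:**
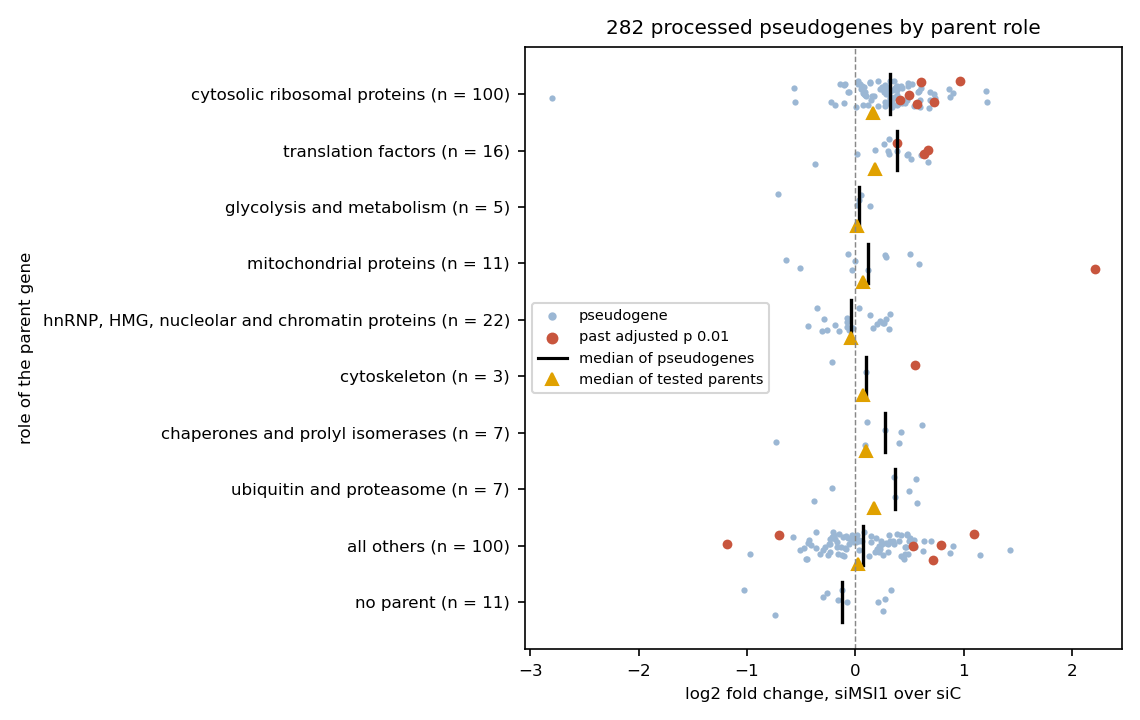
Log2 fold change of each of the 282 copies by the role of its parent, with called copies in red, the median of the copies as a black bar and the median of their tested parents as a yellow triangle. The bars of ribosomal proteins (0.32) and translation factors (0.38) lie right of their triangles (0.16 and 0.18), and that of hnRNP, HMG, nucleolar and chromatin proteins lies near 0.

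Within families of 3 or more copies by symbol, which share sequence and are not replicates, most copies lay at or above their parent. RPSA, a small subunit protein also known as a laminin receptor, had 7 copies with log2 fold changes from 0.27 to 0.90, beside 0.39 for RPSA (adjusted p = 0.019). The siMSI1 values of each of the 7 lay above its siC values, where 42.8% of all tested genes had groups without overlap. RPSAP9 (0.90) and RPSAP54 (0.27) had siC means under 2 FPKM and so were selected through siMSI1. Their changes and their lack of overlap are thus not independent of the selection. Summed over the 7, the copies were at 114, 109 and 113 CPM (reads scaled to the same library total) under siC against 137, 147 and 187 under siMSI1, a ratio of 1.4, where RPSA had 1.32. The 4 copies of EEF1A1 ranged from 0.30 to 0.63 beside 0.25 for EEF1A1 (adjusted p = 0.029), all 4 without overlap between the groups (again beside 42.8% of all tested genes). EEF1A1P13, with a siC mean under 2 FPKM, was selected through siMSI1 as well, so its values are not independent of the selection. The 3 copies of EIF4B, which stimulates the eIF4A helicase, ranged from 0.38 to 0.67 beside a called 0.31 for EIF4B (adjusted p = 0.0094), and their sum had a ratio of 1.47 where EIF4B had 1.24. EIF4BP3 and EIF4BP7 had siC means under 2 FPKM and were also selected through siMSI1. The range and the sum of the EIF4B copies are thus not independent of the selection. PPIA, the prolyl isomerase cyclophilin A, had 0.22 and its 4 copies 0.11 to 0.42.

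FTH1, the ferritin heavy chain, was the family in which the parent lay below 0 and the copies did not, although no value passed the threshold. For FTH1 the log2 fold change was −0.18 (adjusted p = 0.15), and its 4 copies had 0.00032 to 0.54, none of them called by limma or voom and 1 at an unadjusted p under 0.05. Their sum was at 8.14, 8.62 and 8.83 CPM under siC against 8.14, 14.7 and 11.2 under siMSI1, so siMSI1 replicate 1 lay level with the lowest siC library. FTH1 itself was at 2876, 2666 and 2815 CPM under siC against 2304, 2405 and 2704 under siMSI1, with 1 siMSI1 library above the lowest siC library. For RPL23A and RPL24 the sums of 3 copies each had ratios of 1.29 and 1.28, beside 1.23 and 1.16 for the parents. The RPL24 sums overlapped between the groups, at 12.55, 14.87 and 18.14 CPM under siC against 13.91, 22.27 and 22 under siMSI1. Of these copies, RPL24P2 was under 2 FPKM in every siC library and so was selected through siMSI1. The 3 copies of RPS7 summed to 76.6, 84.9 and 87.1 CPM under siC against 82.9, 101.4 and 98.2 under siMSI1, so the groups overlapped. RPL21 was the exception, with a ratio of 1.06 for the copies and 1.32 for the parent. Its copies were at 70.5, 73.7 and 161 CPM under siC, where replicate 3 stood apart, against 103, 106 and 114 under siMSI1, and RPL21 was lowest in that same library (273, 287 and 209.6).

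**Figure D4:**
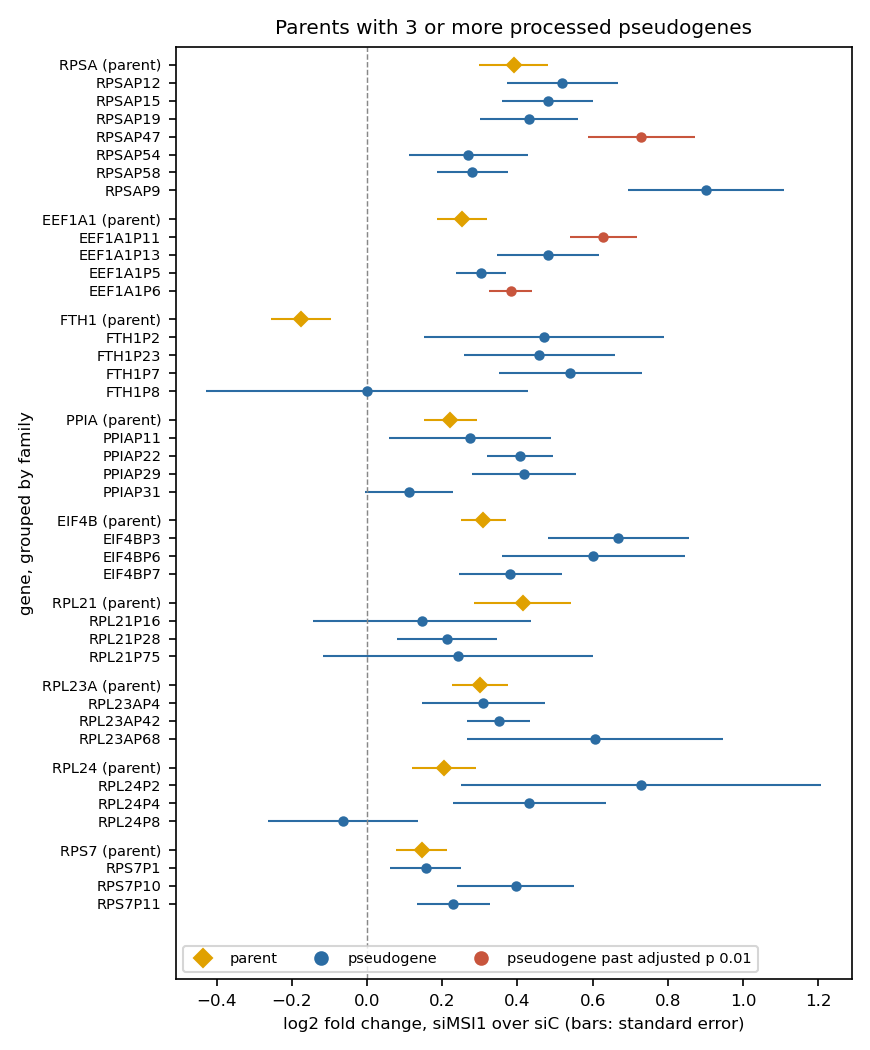
Log2 fold change with its standard error for the 9 parents with 3 or more copies by symbol (diamonds) and for each copy (circles, red where called). The 7 RPSA and 4 EEF1A1 copies all lie above 0, and the FTH1 copies lie right of FTH1 at −0.18. RPSAP9, RPSAP54, EEF1A1P13, EIF4BP3, EIF4BP7 and RPL24P2 were selected through siMSI1, so their positions are not independent of the selection.

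The copies of RPL41 varied between libraries more than between groups. RPL41 encodes the shortest ribosomal protein, and 4 selected copies are shorter than a read: RPL41P1 (81 bases, chr20:21755270-21755350), AC090498.1 (75 bases, chr7:137513859-137513933), AC016596.1 (78 bases, chr5:55944656-55944733) and AC138123.1 (78 bases, chr12:93083598-93083675). All 4 hold the coding sequence of RPL41 (gene on chr12:56116590-56117967, plus strand) with 0 differences, whole in 3 of them and bases 1 to 75 in AC090498.1, so the 1 sequence printed stands for all 5 genes.
RPL41: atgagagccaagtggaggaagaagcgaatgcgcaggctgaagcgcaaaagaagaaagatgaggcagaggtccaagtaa

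RPL41P1 was at 100.5, 77.1 and 241 CPM under siC against 88.7, 98.1 and 436 under siMSI1. AC090498.1 was at 24.3, 15.4 and 72.5 CPM under siC against 20.6, 24.3 and 149 under siMSI1. In both groups, replicate 3 stood apart, and the same was seen for AC016596.1 and AC138123.1. The parent was at 1246, 1321 and 1090 CPM under siC against 1203, 1464 and 889.7 under siMSI1, lowest in replicate 3 of each group. As a sum, the 5 genes were at 1404, 1441 and 1472 CPM under siC against 1343, 1632 and 1579 under siMSI1, where replicate 3 did not stand apart. Relative to the mean of the other 2 libraries, replicate 3 had 2.76 times the reads on the copies in siC and 4.48 times in siMSI1, while for the sum of the 5 genes these values were 1.03 and 1.06. None of the copies was called by limma or voom, or had an unadjusted p under 0.05 (adjusted p = 0.54 to 0.77 for the 3 with the highest level). Without replicate 3 of both groups, 12 copies of all 282 were called, 10 higher and 2 lower, 8 of them among the 17. The share of the reads on all copies without these 4 was 0.486%, 0.467% and 0.513% in siC and 0.546%, 0.598% and 0.606% in siMSI1, again without overlap. Among the 8 copies under 150 bases, the median difference of replicate 3 from the other libraries was 0.79 in siC and 1.16 in siMSI1 on the log2 scale, and for the 123 copies of 600 bases or more it was 0.030 and 0.033.

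**Figure D5:**
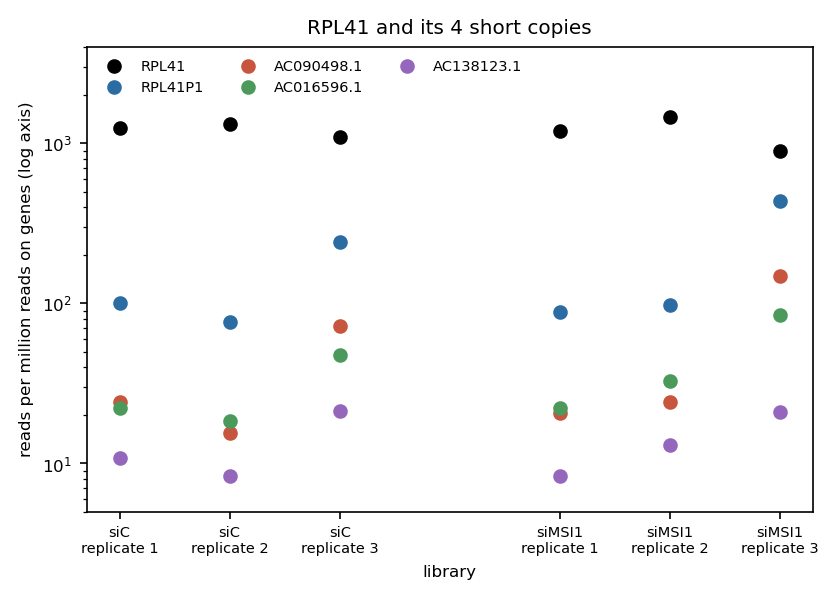
Normalized reads, in CPM over the reads on genes (log axis), for RPL41 (black) and its 4 short copies in each library. Replicate 3 is the highest of its group for every copy and the lowest for RPL41.

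In 16 of the 271 pairs, by symbol or by sequence, the copy held more reads than the parent. In 8 of the 16, at least 50% of the canonical transcript of the parent is also covered by exons of another gene on the same strand, while 21 of the 271 pairs have such a parent. EEF1G, the elongation factor subunit eEF1-gamma, is listed at 0 in every library, with 99.5% of its bases shared with AP002990.1, while its copy AC008038.1 held a mean of 3587 reads. RPS10 (84.0% shared with RPS10.NUDT3) had a mean of 13.3 reads beside 901 for AC024293.1, 48.8 for AL139100.1 and 88.7 for RPS10P3. EIF4A1, an RNA helicase of translation initiation, has 100% of its bases shared with AC016876.2 and had 75.7 reads beside 281 for EIF4A1P10. These overlapping genes held few reads themselves, with AP002990.1, RPS10.NUDT3 and AC016876.2 at 0.0803 FPKM or less in every library.

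The other 8 of the 16 included 5 pairs whose parent lies between 28 and 34 Mb of chromosome 6, in the MHC region: 2 copies of RPS18, and those of RNF5, CLIC1 and PBX2. Of the 271 pairs, 7 have a parent there, a window that was set after these pairs were seen. AC069120.2 held a mean of 1739 reads and RNF5, an E3 ubiquitin ligase, one of 97.5. AC011495.1 and AL080243.2, copies of RPS9, held 5709 and 2018 reads beside 492 for RPS9. In the 243 pairs with a parent of neither kind, 3 copies held more reads than the parent. For these pairs the fold change of the parent row rests on the part of its reads that was counted there, and how these reads were assigned was not tested.

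Copies inside introns moved in the direction of their host in no more than 50% of cases. Of the 282 copies, 107 lie in an intron of a protein-coding gene and 10 of these were called, beside 6.03% of all copies and 11.0% of all tested genes. Where the host was a single tested gene on the same strand, copy and host had the same sign in 11 of 22 cases, and where it lay on the opposite strand in 21 of 48. The medians of the copies were 0.24 and 0.27 and those of the hosts −0.11 and −0.088. Pearson's r of copy and host was −0.292 and −0.306, as descriptions across genes in the same 6 libraries. Exons of another gene overlapped 14 copies on the same strand and 18 on the opposite strand, and of the 250 copies free of such overlap 15 were called, 13 higher and 2 lower, again beside 6.03% and 11.0%. Of the 236 copies with at least 50% of these stretches absent from the parent transcript, 14 were called, all higher, beside 5.32% of all copies and 5.15% of all tested genes called higher.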

How the data were processed

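RNA was sequenced from 3 siC and 3 siMSI1 libraries of KNS42 cells. The submitters' processing notes name cutadapt 1.14, HISAT2 2.1.0, SAMtools 1.5, featureCounts 1.5.3 and edgeR 3.18.1, with hg38 and Ensembl GRCh38.89. The authors counted reads per gene and deposited FPKM values, in which reads are scaled to gene length and library depth. How reads with several matches were counted is not given in the sources used here. Deposited columns also hold the authors' log2 fold changes, p-values and FDR, and none of these was used.

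All values recovered to whole reads (100% within a tolerance of 0.01), and voom on these reads, an alternative, called 2690 of the 15069 tested genes. CPM values here are recovered reads scaled to the reads on genes of a library. Groups came from the sample titles. limma 3.58.1 (R 4.3.3, trend and robust empirical Bayes) was run on log2(FPKM + 0.1), leaving out genes whose mean was under 0.5 FPKM, which kept 15069, with Benjamini-Hochberg adjustment over all of them and a threshold of 0.01. A fold change on this scale understates that of low genes. The fit was tested on simulated data. Ratios of copy to parent and read shares were compared by two-sided exact permutation tests, whose smallest p is 0.1. The p-values measure only the spread between these libraries, which may be technical.

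Positions, introns, overlapping exons and sequences came from GENCODE release 44 on GRCh38, a later release than the authors' annotation, and parents by sequence from BLAST+ 2.17.0. The copies, gene groups and tests were chosen with earlier results of these data known. Genes named are the 8 highest copies, the called copies, the 6 pairs with the largest difference at 30 reads or more, families of 3 or more copies, the parents, the genes next to the level of 2 FPKM, and MSI1. Others were named after their values were seen. Results of some genes are not reported here.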

Additional observations from a re-analysis of the deposited data

How the results depend on the processing

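Of the results with a count or a test across copies, 17 called copies and 10 called parents depended most on the fit. With no filter on low genes 7 copies and 2 parents were called, and in limma without trend and robust fitting 6 and 3. At an adjusted p of 0.05 the numbers were 72 and 27. voom on the recovered reads called 24 of each. With a replicate block 32 copies and 19 parents were called, and voom with a replicate block, added after the data were seen, called 49 and 53. How many of all tested genes were called is not given here for most of these fits. The counts therefore do not show whether copies were called more or less often than other genes. Whether the replicate numbers pair the libraries is not known, since the labels tie no number to a culture or day. The deviations of same-numbered libraries from their group means correlated at −0.066, 0.078 and 0.083. The RPL41 copies, however, were highest in replicate 3 of both groups. Leaving out replicate 3 of both groups, also added later, gave 3 called parents and 12 called copies, of which 8 were among the 17. With each library left out in turn, 6 to 18 copies and 1 to 6 parents were called, and 6 to 12 of the 17 kept their call. The median difference of copy and parent was 0.129 after quantile normalization and 0.043 to 0.10 with each library left out. No called copy changed its sign. The read share of the copies stayed higher in siMSI1 with each library left out.

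Depth limits what can be called: 63 copies had under 30 reads per library, and a copy and its parent that share a stretch of read length cannot be separated there.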
